A study of Mus musculus with 24 samples.

Results

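Of the 39017 genes in the count table, 8 were taken as cholesterol genes, as the rows whose gene ID maps to the symbols Hmgcs1, Idi1, Fdft1, Sqle, Lss, Cyp51, Insig1 and Srebf2. The first 6 encode enzymes of cholesterol synthesis, Srebf2 encodes a transcription factor that drives the pathway, and Insig1 encodes a protein that holds that factor back. None of the 8 is itself an uptake receptor, so uptake was read from a separate list. The tissue was flash-frozen subcutaneous fat of C57BL/6 mice, taken at the 4th mammary gland, and its RNA was sequenced after DNase treatment and removal of ribosomal RNA. Lean and obese animals are contrasted in the series, as is fat near to a breast tumor with distant fat. There were 6 groups of 4 libraries, 24 in all: HFD peritumoral, HFD contralateral, HFD with no tumor, Chow peritumoral, Chow contralateral and Chow with no tumor. HFD and Chow are the diets as labelled. Peritumoral fat lay next to the tumor, contralateral fat came from the opposite side, and no-tumor fat carries a label of no tumor. Library titles carry the letter L for all peritumoral fat and R for all contralateral and no-tumor fat. If these letters stand for left and right, nearness to the tumor and body side cannot be told apart. The labels do not give the composition of the diets, the ages, the tumor line or whether replicates were separate animals, so the p-values speak of library-to-library spread that may be only technical.

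Cells make cholesterol from acetyl-CoA through the mevalonate pathway, in which Hmgcs1 makes HMG-CoA, the precursor of mevalonate. Idi1 interconverts the isoprenoid building blocks, Fdft1 joins farnesyl units into squalene, Sqle oxidises squalene, Lss closes it into lanosterol and Cyp51 removes a methyl group from lanosterol. When membrane sterol is low, the SREBP-2 protein made from Srebf2 is carried to the Golgi, cut and sent to the nucleus, where it raises transcription of these enzymes and of sterol uptake genes. When sterol is high, Insig proteins hold SREBP in the endoplasmic reticulum, and adipocytes, which take up and store much of their cholesterol, are known for low synthesis.

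The promoters of Hmgcs1, Insig1, Srebf2 and Cyp51 are shown because these 4 genes, which share a pathway, differed with diet in different directions. RefSeq (GRCm38.p6) gave promoter windows of 300 bases, from 250 before to 50 after the start, for 6 of the 8 genes (Hmgcs1, Idi1, Lss, Cyp51, Insig1 and Srebf2). The bases printed lie before the gene start, on the gene's own strand, and capitals mark motif matches on either strand. Hmgcs1 is at chr13:119690101-119690350 (+), Insig1 at chr5:28071162-28071362 (+), Srebf2 at chr15:82147019-82147265 (+) and Cyp51 at chr5:4104747-4104947 (-).
Hmgcs1: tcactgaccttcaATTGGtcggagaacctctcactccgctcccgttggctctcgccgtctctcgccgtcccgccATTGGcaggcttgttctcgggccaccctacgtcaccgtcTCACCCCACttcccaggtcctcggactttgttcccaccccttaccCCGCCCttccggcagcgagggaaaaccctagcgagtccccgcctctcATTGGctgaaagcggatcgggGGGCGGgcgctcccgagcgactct
Insig1: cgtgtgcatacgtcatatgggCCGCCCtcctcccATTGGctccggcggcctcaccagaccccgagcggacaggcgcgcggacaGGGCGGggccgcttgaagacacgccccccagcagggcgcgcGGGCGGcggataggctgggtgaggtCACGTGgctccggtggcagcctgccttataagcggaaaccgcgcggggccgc
Srebf2: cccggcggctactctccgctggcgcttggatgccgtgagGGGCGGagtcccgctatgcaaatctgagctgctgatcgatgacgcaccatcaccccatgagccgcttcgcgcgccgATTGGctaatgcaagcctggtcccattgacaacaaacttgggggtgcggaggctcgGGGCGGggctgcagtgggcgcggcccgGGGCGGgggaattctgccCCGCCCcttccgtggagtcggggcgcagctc
Cyp51: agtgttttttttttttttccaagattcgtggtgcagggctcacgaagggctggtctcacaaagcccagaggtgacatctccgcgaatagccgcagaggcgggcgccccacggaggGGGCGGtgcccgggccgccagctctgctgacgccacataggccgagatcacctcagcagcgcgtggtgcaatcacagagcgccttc
The sterol regulatory element core TCACNCCAC, which SREBP proteins are known to bind, was present in 1.24% of all 32851 RefSeq promoter windows and in 1 of the 6 here, that of Hmgcs1, as TCACCCCAC 137 bases before the RefSeq start. The E-box CACGTG was present in 7.15% of all windows and in 1 of the 6, that of Insig1, 101 bases before the RefSeq start, which lies further downstream than the Insig1 start in the count table. The CCAAT box (CCAAT, or ATTGG on the other strand) was present in 37.4% of all windows and in all 6. That of Cyp51 lies 29 bases before the RefSeq start, outside the bases printed above. The GC box (GGGCGG, or CCGCCC on the other strand) was present in 35.7% of all windows and in all 6. No marked match overlaps another, and a match is a description of these letters. Only exact matches were searched, with N as any base, so a site that departs from these letters is left unmarked.

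Libraries held between 9.13 and 18.2 M counts, of which 20.6% to 35.9% fell on ribosomal RNA rows. Contralateral libraries held 11.69 to 13.85 M counts on Chow and 16.67 to 17.29 M on HFD, and peritumoral depth did not overlap either. The ribosomal share was 29.8% to 34.9% in Chow and 20.6% to 22.1% in HFD no-tumor libraries, and contralateral shares did not overlap either. Where they did not overlap, these measures and diet cannot be told apart. Adipocyte markers (7 genes from Adipoq to Lpl, none at 0 in any library) were abundant in all 24 libraries, with summed counts per M counts (CPM) of 8430 to 21100. HFD peritumoral replicate 2 stood apart from its group, with proliferating-cell markers (4 genes, none at 0) at a summed 427 CPM against 147, 259 and 326 CPM in the other 3. Its B and T cell markers (6 genes) summed to 71.7 CPM against 3.92 to 29.3 CPM, and its adipocyte markers to 8430 CPM against 10800 to 15700 CPM. Chow no-tumor replicate 2 stood apart in Lss and Insig1. Skeletal muscle markers (6 genes, of which Ckm was at 0 in 8 libraries and Myh4 in 5) summed to over 500 CPM in 5 Chow libraries and to 30.8 to 239 CPM in all HFD libraries. They reached 4770, 3270 and 2650 CPM in Chow contralateral replicates 1, 2 and 4, against 75.7 CPM in replicate 3, with 2580 CPM in Chow peritumoral replicate 2 and 1010 CPM in Chow no-tumor replicate 3. A fit without these 5 libraries was added after the data were seen, and it leaves 1 Chow contralateral library, assumed to vary like the rest. In bulk tissue, fewer cells of a type and less RNA per cell cannot be told apart.

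Levels of different genes were compared per length of their exons, as RPKM (CPM per kilobase of exon), and all other levels below are CPM scaled with the TMM method over the 24 libraries. Hmgcs1 had the highest level per length of the 8 in every group mean, with 16.5 to 97.1 RPKM over the libraries. Insig1 followed with 10.4 to 40.5 RPKM, Srebf2 with 6.25 to 16.5 RPKM and Fdft1 with 5.15 to 10.8 RPKM. Cyp51 lay at 3.27 to 8.18 RPKM, Sqle at 1.96 to 7.23 RPKM and Lss at 1.38 to 4.02 RPKM, while Idi1 was nearly silent at 0.118 to 0.534 RPKM. The order was not fixed: Fdft1 was above Srebf2 in the means of HFD contralateral and HFD no-tumor fat and below it in the other 4 groups. The libraries of Fdft1 and Srebf2 overlapped in 4 of the 6 groups, those of Sqle and Lss in 4, and those of Cyp51 and Sqle in 2. Hmgcs1 and Insig1 overlapped in 1 group, Chow no-tumor, and Idi1 lay below every other gene without overlap in all 6.

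**Figure D1:**
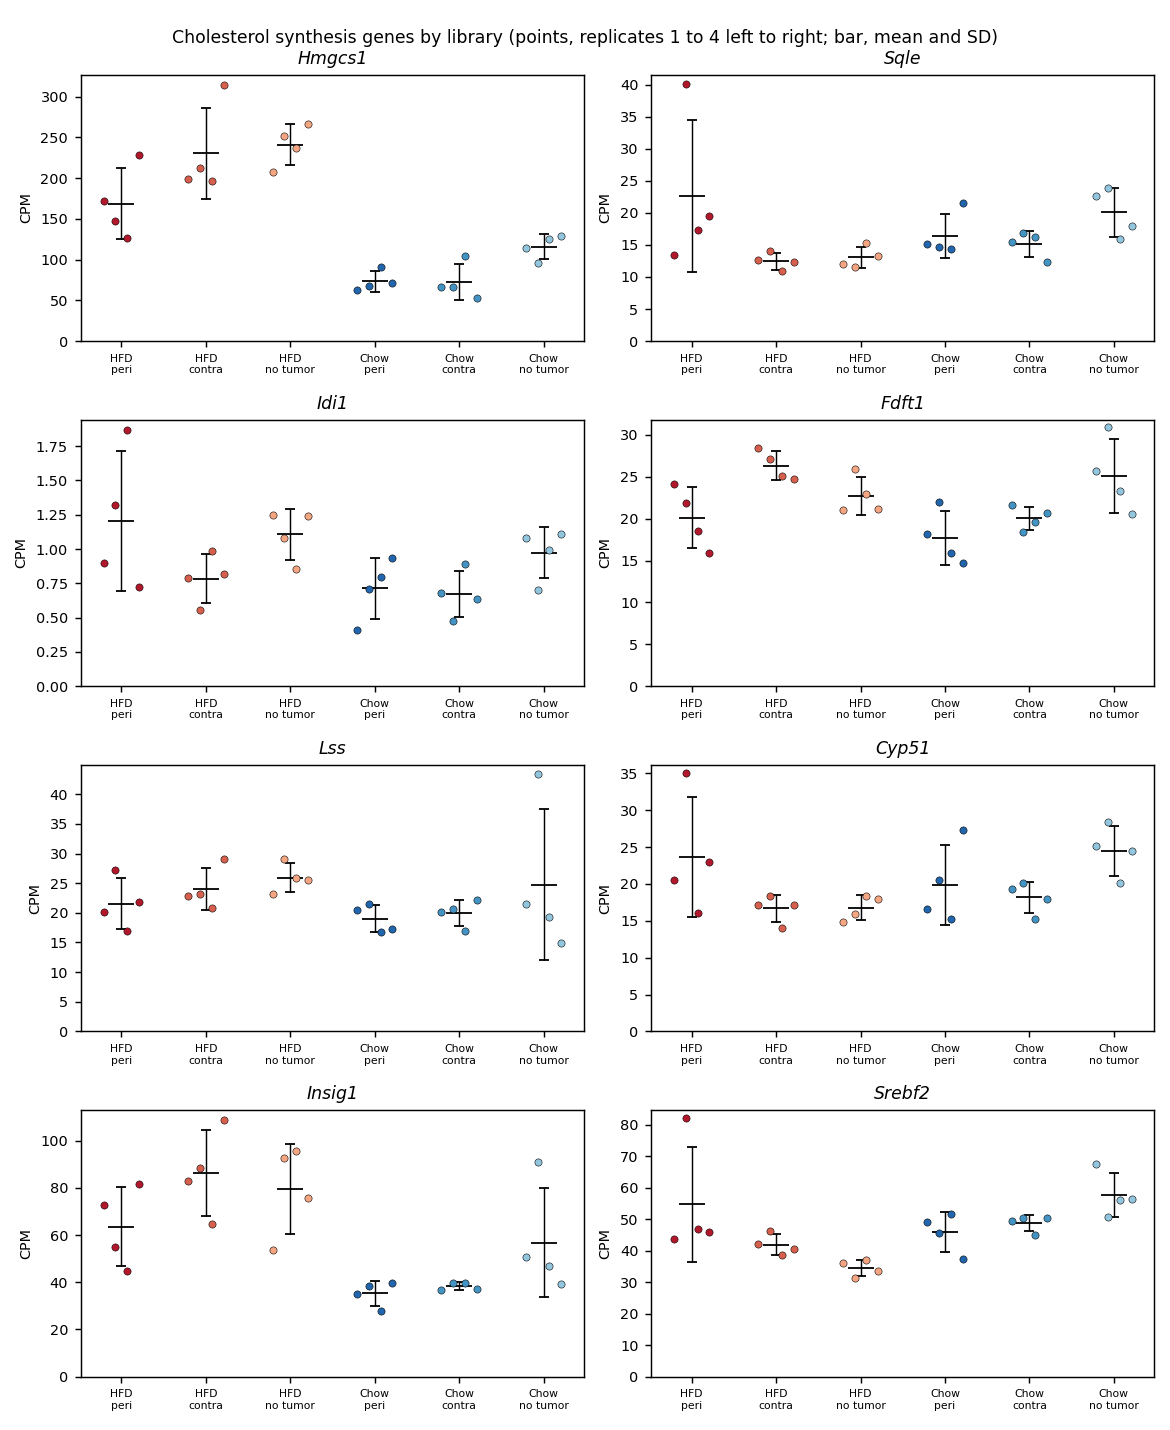
Level of each of the 8 cholesterol genes in CPM (vertical axes, starting at 0) in the 24 libraries, by group from HFD peritumoral at the left to Chow no-tumor at the right; points are replicates 1 to 4 from left to right, and bars give the mean and SD. For Hmgcs1 every HFD library lies above every Chow library of the same position, while HFD peritumoral replicate 2 stands above its group for Sqle (40.1 CPM), Cyp51 (35.1 CPM) and Srebf2 (82.2 CPM).

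Hmgcs1, the HMG-CoA synthase at the entry of the pathway (chr13:119690462-119708086 on mm10, + strand), was the gene with the largest rise on HFD among the 8 in all 3 positions. HFD peritumoral libraries had 172, 148, 127 and 228 CPM, against 62.1, 68.1, 91.3 and 71.2 CPM in Chow peritumoral libraries. HFD contralateral libraries had 199, 213, 196 and 314 CPM, against 66.5, 66.9, 105 and 53.3 CPM in Chow contralateral libraries. HFD no-tumor libraries had 208, 252, 237 and 267 CPM, against 114, 95.3, 125 and 129 CPM in Chow no-tumor libraries. At each position every HFD library was above every Chow library, and HFD contralateral replicate 4 was the highest of all 24. The log2 fold change on HFD was 1.17 ± 0.19 in peritumoral fat (adjusted p = 0.00201, edgeR), 1.62 ± 0.24 in contralateral fat (adjusted p = 0.00118, edgeR) and 1.07 ± 0.10 in no-tumor fat (adjusted p = 2.5e-05, edgeR). Over the leave-one-out fits these values ran from 0.995 to 1.14 in no-tumor fat and from 1.44 to 1.85 in contralateral fat, with no call lost. Without the 5 Chow libraries high in muscle markers the contralateral value was 1.12, against replicate 3 alone, and its call was lost (adjusted p = 0.061, edgeR). Chow contralateral replicate 3, the library low in muscle markers, was also the highest of its group in Hmgcs1. Of the 50-base stretches of the Hmgcs1 transcripts 11.6% also occur in another annotated gene, most of them in Gm48342, so some of its reads may have been split.

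Insig1, which retains the SREBP complex in the endoplasmic reticulum and is itself known as a target of SREBP (chr5:28071363-28078662, + strand), was higher on HFD in both fats of tumor-bearing mice. HFD peritumoral libraries had 72.7, 54.8, 44.8 and 81.7 CPM, against 35.2, 38.4, 27.9 and 39.5 CPM in Chow peritumoral libraries. HFD contralateral libraries had 83.1, 88.3, 64.9 and 109 CPM, against 36.5, 39.8, 39.6 and 37.3 CPM in Chow contralateral libraries. In neither position did the diets overlap, and the 4 Chow contralateral libraries lay close together. HFD no-tumor libraries had 53.8, 92.5, 95.7 and 75.9 CPM, against 50.5, 90.9, 46.8 and 39.1 CPM in Chow no-tumor libraries. There the groups overlapped, because Chow replicate 2 was among the HFD values. The log2 fold change on HFD was 0.81 ± 0.19 in peritumoral fat (adjusted p = 0.00972, edgeR) and 1.13 ± 0.135 in contralateral fat (adjusted p = 0.000142, edgeR). In no-tumor fat it was 0.495 ± 0.32 (adjusted p = 0.316, edgeR), and without Chow replicate 2 it was 0.83 (adjusted p = 0.0472, edgeR). Without the libraries high in muscle markers the contralateral value was 1.11 (adjusted p = 0.0539, edgeR).

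Srebf2, which encodes the SREBP-2 factor (chr15:82147266-82205376, + strand), was lower on HFD in contralateral and no-tumor fat, opposite to Hmgcs1. HFD no-tumor libraries had 36.0, 31.2, 36.9 and 33.7 CPM, against 67.5, 50.7, 56.2 and 56.4 CPM in Chow no-tumor libraries. Every HFD library of that position was below the lowest Chow library, without overlap. HFD contralateral libraries had 42.2, 46.3, 38.8 and 40.5 CPM, against 49.6, 50.5, 44.9 and 50.3 CPM in Chow contralateral libraries, and here Chow replicate 3 lay within the HFD values. HFD peritumoral libraries had 43.6, 82.2, 46.9 and 46.1 CPM, against 49.1, 45.5, 51.8 and 37.4 CPM in Chow peritumoral libraries, with replicate 2 on HFD far above the other 7. The log2 fold change on HFD was -0.73 ± 0.08 in no-tumor fat (adjusted p = 6.94e-05, edgeR) and -0.255 ± 0.07 in contralateral fat (adjusted p = 0.0108, edgeR). The contralateral call was lost without Chow contralateral replicate 2 (log2 fold change -0.205, adjusted p = 0.0541, edgeR) and without the libraries high in muscle markers (-0.10, adjusted p = 0.556, edgeR). In peritumoral fat the fold change was 0.21 ± 0.20 (adjusted p = 0.438, edgeR), and -0.06 without HFD replicate 2 (adjusted p = 0.719, edgeR).

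Sqle, the squalene epoxidase that carries out the first oxygen-requiring step (chr15:59315077-59331192, + strand), was lower on HFD where there was no tumor. HFD no-tumor libraries had 12.1, 11.6, 15.3 and 13.3 CPM, against 22.7, 23.9, 15.9 and 17.9 CPM in Chow no-tumor libraries, without overlap. HFD contralateral libraries had 12.6, 14.1, 10.9 and 12.3 CPM, against 15.4, 16.8, 16.2 and 12.3 CPM in Chow contralateral libraries, and Chow replicate 4 reached into the HFD values. HFD peritumoral libraries had 13.5, 40.1, 17.4 and 19.5 CPM, against 15.1, 14.6, 14.3 and 21.5 CPM in Chow peritumoral libraries. Replicate 2 on HFD was the highest of all 24 libraries. The log2 fold change on HFD was -0.61 ± 0.14 in no-tumor fat (adjusted p = 0.00886, edgeR) and -0.32 ± 0.11 in contralateral fat (adjusted p = 0.0355, edgeR). The contralateral call was lost in 6 of the 8 leave-one-out fits, all but those without HFD replicate 2 or Chow replicate 4, with values from -0.41 to -0.235 and adjusted p up to 0.138 (edgeR), and without the libraries high in muscle markers (adjusted p = 0.131, edgeR). In peritumoral fat the value was 0.44 ± 0.32 (adjusted p = 0.309, edgeR), and 0.003 without HFD replicate 2 (adjusted p = 0.991, edgeR).

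Cyp51, the lanosterol demethylase (chr5:4081145-4104746, - strand), varied over the libraries much as Sqle did. HFD no-tumor libraries had 14.8, 15.9, 18.4 and 18 CPM, against 25.1, 28.4, 20.1 and 24.4 CPM in Chow no-tumor libraries, without overlap. HFD contralateral libraries had 17.1, 18.4, 14 and 17.2 CPM, against 19.3, 20.1, 15.3 and 18 CPM in Chow contralateral libraries, with overlap. HFD peritumoral libraries had 20.6, 35.1, 16 and 23 CPM, against 16.6, 20.5, 15.2 and 27.3 CPM in Chow peritumoral libraries. As for Sqle, the highest library was HFD peritumoral replicate 2 and the highest of the Chow peritumoral group was replicate 4. Cyp51 fell on HFD in no-tumor fat (log2 fold change -0.53 ± 0.11, adjusted p = 0.00478, edgeR). It was not called in contralateral fat (-0.16 ± 0.11, adjusted p = 0.247, edgeR) or in peritumoral fat (0.22 ± 0.25, adjusted p = 0.523, edgeR).

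Fdft1, the squalene synthase (chr14:63145153-63177793, - strand), was higher on HFD in contralateral fat. HFD contralateral libraries had 28.4, 27.1, 25.1 and 24.8 CPM, against 21.6, 18.4, 19.6 and 20.7 CPM in Chow contralateral libraries, without overlap. The log2 fold change there was 0.35 ± 0.08 (adjusted p = 0.00277, edgeR), and 0.42 without the libraries high in muscle markers (adjusted p = 0.0579, edgeR). HFD peritumoral libraries had 24.2, 21.9, 18.5 and 15.9 CPM, against 18.2, 22, 15.9 and 14.7 CPM in Chow peritumoral libraries. HFD no-tumor libraries had 21, 25.9, 22.9 and 21.2 CPM, against 25.7, 31.0, 23.3 and 20.6 CPM in Chow no-tumor libraries. Both of these pairs overlapped, with log2 fold changes of 0.14 ± 0.16 in peritumoral fat (adjusted p = 0.509, edgeR) and -0.13 ± 0.12 in no-tumor fat (adjusted p = 0.477, edgeR). Its exons share 767 of 2860 bases (26.8%) with Ctsb, a lysosomal protease gene on the opposite strand, and whether the counting used strand is not stated in these sources. Ctsb was itself higher on HFD in contralateral fat (log2 fold change 0.74 ± 0.10, adjusted p = 0.000132, edgeR), at 1430 to 1900 CPM against 853 to 990 CPM. Ctsb was also higher on HFD in peritumoral fat (0.89 ± 0.14, adjusted p = 0.00201, edgeR), where Fdft1 was not called, and had 0.34 ± 0.13 for peritumoral against contralateral fat on HFD (adjusted p = 0.0825, edgeR), where Fdft1 was lower. The part of Ctsb reads in the Fdft1 counts was not tested.

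Lss, the lanosterol synthase (chr10:76531588-76557138, + strand), was not called for diet in any position. HFD libraries ran from 17 to 27.3 CPM in peritumoral, 20.8 to 29.1 CPM in contralateral and 23.2 to 29.1 CPM in no-tumor fat, against 16.8 to 21.5, 17 to 22.1 and 14.9 to 43.4 CPM in the Chow fats of the same positions. Chow no-tumor replicate 2, at 43.4 CPM, was the highest of all 24 libraries. In no-tumor fat the log2 fold change on HFD was 0.08 ± 0.33 (adjusted p = 0.893, edgeR), and without that library it was 0.50 (adjusted p = 0.0057, edgeR). That library was also the highest of its group in Insig1, Fdft1, Sqle and Cyp51, and the lowest in Hmgcs1, Idi1 and Srebf2.

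Idi1, the isopentenyl-diphosphate isomerase (chr13:8885501-8892451, + strand), was counted only 5 to 31 times per library, at 0.413 to 1.87 CPM. In HFD peritumoral fat it ran from 0.726 to 1.87 CPM, against 0.413 to 0.936 CPM in Chow peritumoral libraries, and no comparison called it. Of its 50-base stretches 25.3% also occur in another annotated gene, most of them in Gm13502, so its level is uncertain. It did not pass the low-count filter for peritumoral against contralateral fat on Chow, where 7 of the 8 genes were tested, and all 8 passed in the other comparisons.

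Set against the whole table, the diet counts of the 8 genes were 2 called in peritumoral fat (2 higher, 0 lower), 5 in contralateral fat (3 higher, 2 lower) and 4 in no-tumor fat (1 higher, 3 lower). Of all genes tested, edgeR called 33.6% in peritumoral fat (16.4% higher and 17.2% lower), 49.3% in contralateral fat (24.5% higher and 24.8% lower) and 24.9% in no-tumor fat (13.6% higher and 11.3% lower). In peritumoral and contralateral fat the share of the 8 called was near this background and says little about the 8 genes as a group. Their median log2 fold change on HFD was 0.33 in peritumoral, 0.19 in contralateral and -0.03 in no-tumor fat, beside 0.02, -0.01 and -0.02 over all genes. The libraries of the diets did not overlap for 2 of the 8 genes in peritumoral, 3 in contralateral and 4 in no-tumor fat, beside 33.3%, 46.2% and 27.4% of all genes tested. Without the 5 libraries high in muscle markers 2 of the 8 were called in peritumoral and 4 in no-tumor fat. Over all genes that fit called 3790 against 5353 in peritumoral and 3145 against 3943 in no-tumor fat. In contralateral fat it leaves 1 Chow library, so its count there says little about the 8 genes.

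**Figure D2:**
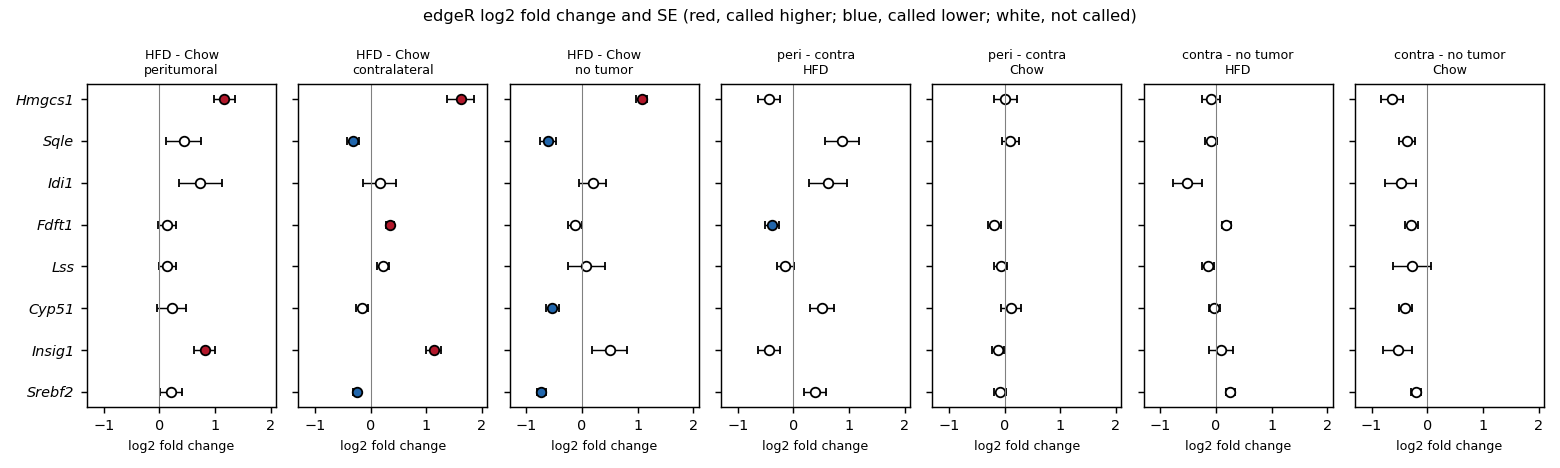
Log2 fold change of the 8 genes (horizontal axes, with bars for the SE) in each of the 7 comparisons of 2 groups, with 4 libraries a group; red points were called higher, blue points lower and white points were not called at an adjusted p of 0.05. Hmgcs1 is called higher on HFD in all 3 positions and Insig1 in peritumoral and contralateral fat, while Srebf2, Sqle and Cyp51 are called lower in no-tumor fat.

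Next to the tumor on HFD, 1 of the 8 genes was called against the contralateral side, with same-numbered libraries taken as unpaired. The count was 5 with the replicate number as a block, namely Fdft1, Hmgcs1, Insig1, Sqle and Cyp51. With all 24 libraries in 1 fit it was 4, and with DESeq2 and voom 2 each. Over all genes these fits also called more: 5144 with the block, 6332 with all 24 libraries, 5283 with DESeq2 and 5892 with voom, against 4610. Whether same-numbered libraries share an animal is not given, so the count is not settled. Fdft1 fell, with 24.2, 21.9, 18.5 and 15.9 CPM in peritumoral libraries, against 28.4, 27.1, 25.1 and 24.8 CPM in contralateral libraries (log2 fold change -0.38 ± 0.13, adjusted p = 0.0482, edgeR). This call was lost without any 1 of the 4 contralateral libraries and without peritumoral replicate 3 or 4 (adjusted p up to 0.126, edgeR). Among all genes 29.5% were called there, 16.8% higher and 12.7% lower. Sqle had 0.87 ± 0.30 (adjusted p = 0.053, edgeR) and Cyp51 0.51 ± 0.22 (adjusted p = 0.0972, edgeR), both with peritumoral replicate 2 highest. Without that library, which was also highest in proliferating-cell markers, the values were 0.45 for Sqle (adjusted p = 0.0559, edgeR) and 0.27 for Cyp51 (adjusted p = 0.205, edgeR). The part of those cells in the values was not tested. Hmgcs1 and Insig1 had -0.44 ± 0.20 and -0.435 ± 0.20 (adjusted p = 0.128 each, edgeR), and Srebf2 had 0.39 ± 0.19 (adjusted p = 0.148, edgeR), or 0.13 without peritumoral replicate 2 (adjusted p = 0.278, edgeR). The median over the 8 genes was 0.125, beside -0.02 over all genes, and the libraries did not overlap for 1 of the 8, against 31.5% of all genes.

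On Chow, the same comparison of peritumoral with contralateral fat called 0 of the 7 genes tested with edgeR, and 0 of them had an unadjusted p under 0.05. DESeq2 and limma voom also called 0 of them. Over the whole table edgeR called 0% of 16057 genes, with 1381 at an unadjusted p under 0.05, DESeq2 called 13 and voom 0. Mean levels lay close together: Hmgcs1 had 73.2 ± 12.6 CPM in Chow peritumoral and 73.0 ± 22.5 CPM in Chow contralateral fat (SD, n = 4 each). Insig1 had 35.3 ± 5.23 CPM in peritumoral and 38.3 ± 1.63 CPM in contralateral fat on Chow, and Srebf2 46.0 ± 6.24 and 48.8 ± 2.66 CPM. The median log2 fold change of the 7 genes was -0.07, beside -0.01 over all genes, and the libraries overlapped for all 7, while 5.13% of all genes did not overlap. The test of whether the tumor-side difference depends on diet, on 16 libraries, called 0 of the 8 genes and 0% of all genes with edgeR. At an unadjusted p under 0.05 there were 2 of the 8, Srebf2 (0.50 ± 0.23, and 0.23 without HFD peritumoral replicate 2) and Sqle (0.80 ± 0.37, and 0.37 without it), and DESeq2 and voom called 0 of the 8. Over all genes that test had 3349 at an unadjusted p under 0.05, and DESeq2 called 594 and voom 1472.

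Contralateral fat of tumor-bearing mice was set against fat of mice with no tumor on each diet, a comparison that shares the contralateral libraries with the one of sides. On HFD edgeR called 0 of the 8 genes, with 6.08% of all genes called. There 2 had an unadjusted p under 0.05, as had 3633 of 15718 genes, and DESeq2 and voom called 1 each, Srebf2. Srebf2 had 42.2, 46.3, 38.8 and 40.5 CPM in HFD contralateral libraries, against 36.0, 31.2, 36.9 and 33.7 CPM in HFD no-tumor libraries, without overlap (log2 fold change 0.26 ± 0.07, adjusted p = 0.0555, edgeR). On Chow edgeR called 0 of the 8, with 7.95% of all genes called. There 5 had an unadjusted p under 0.05, as had 4443 of 15946 genes, and DESeq2 and voom called 1 each, Hmgcs1. Hmgcs1 had 73.0 ± 22.5 CPM in Chow contralateral and 116 ± 15.1 CPM in Chow no-tumor fat (SD, n = 4 each), with a log2 fold change of -0.63 ± 0.20 (adjusted p = 0.0913, edgeR), and -0.09 without the libraries high in muscle markers (adjusted p = 0.909, edgeR). All 8 genes had a negative fold change on Chow, with a median of -0.38 beside -0.01 over all genes, though Lss had 0.15 without Chow no-tumor replicate 2 and 0.02 with voom. There Insig1 had -0.53, and -0.20 without that replicate, and on HFD the median over the 8 was -0.06 beside 0.01. The libraries did not overlap for 1 of the 8 on either diet, Srebf2 both times, beside 15.8% of all genes on HFD and 19% on Chow.

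The diet effect differed between contralateral and no-tumor fat for 2 of the 8 genes, both positive, as tested by the interaction of diet with tumor bearing on 16 libraries. Both calls were lost with all 24 libraries in 1 fit (adjusted p = 0.138 for Srebf2 and 0.0906 for Fdft1, edgeR) and without the libraries high in muscle markers (0.0755 and 0.178). Srebf2 had 0.48 ± 0.11 (adjusted p = 0.00813, edgeR), its log2 fold change on HFD being -0.255 in contralateral and -0.73 in no-tumor fat. Fdft1 had 0.49 ± 0.15 (adjusted p = 0.0305, edgeR), with 0.35 in contralateral and -0.13 in no-tumor fat. The Fdft1 call was lost in 8 of the 16 leave-one-out fits, with values from 0.36 to 0.58 and adjusted p up to 0.0794 (edgeR). Those were the fits without Chow contralateral replicate 2, 3 or 4, Chow no-tumor replicate 1, HFD contralateral replicate 1, or HFD no-tumor replicate 1, 3 or 4. Ctsb, which overlaps Fdft1, had 0.57 ± 0.125 in the same test (adjusted p = 0.00589, edgeR). Of all genes 19.9% were called, 9.94% with a positive and 9.94% with a negative difference, and the median over the 8 was 0.43 beside 0.01 over all genes. Hmgcs1 (0.56 ± 0.27, adjusted p = 0.164, edgeR) and Insig1 (0.65 ± 0.36, adjusted p = 0.223, edgeR) were not called, and Insig1 had 0.31 without Chow no-tumor replicate 2. Without Chow contralateral replicate 3, Hmgcs1 had 0.76 (adjusted p = 0.0251, edgeR), and without the libraries high in muscle markers, which keeps that replicate and leaves out the other 3, 0.005 (adjusted p = 0.996, edgeR).

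The rest of the synthesis pathway was read from 16 further enzymes. In peritumoral fat 7 were higher and 0 lower on HFD, in contralateral fat 7 higher and 1 lower, and in no-tumor fat 2 higher and 2 lower, with medians of 0.465, 0.20 and -0.11. Of all genes 33.6%, 49.3% and 24.9% were called in either direction, so the contralateral and no-tumor counts were near background. For this list and those below, the shares of all genes called were 29.5% between the sides on HFD and 19.9% for diet by bearing. For tumor bearing they were 7.95% on Chow and 6.08% on HFD. Sc5d, the lathosterol desaturase, rose by 0.61 ± 0.12 in peritumoral, 1.15 ± 0.07 in contralateral and 0.56 ± 0.15 in no-tumor fat (adjusted p = 0.00536, 1.05e-06 and 0.0236, edgeR), and the no-tumor call was lost in 5 of 8 leave-one-out fits. Hsd17b7, a sterol ketone reductase, rose by 0.89 ± 0.23 in peritumoral fat (adjusted p = 0.0159, edgeR) and 0.77 ± 0.12 in contralateral fat (adjusted p = 0.000286, edgeR). The peritumoral call was lost without Chow replicate 1 (adjusted p = 0.0515, edgeR).

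**Figure D3:**
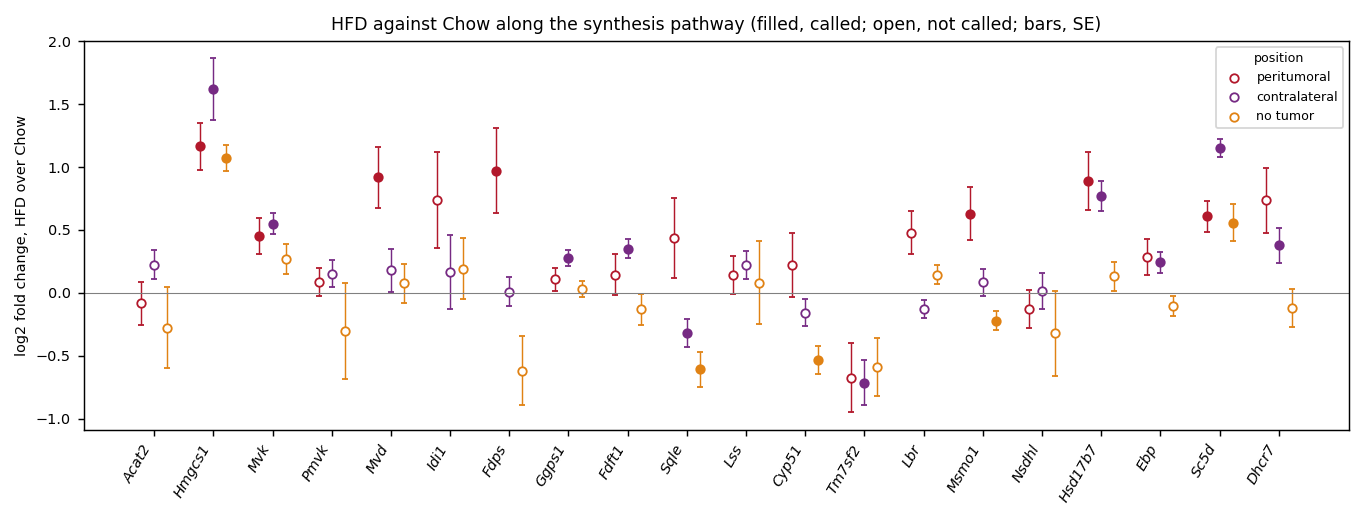
Log2 fold change of HFD over Chow (vertical axis, bars give the SE) for synthesis enzymes in pathway order from Acat2 to Dhcr7, in peritumoral (red), contralateral (purple) and no-tumor fat (orange); filled points were called and open points were not. Hmgcs1 and Sc5d are called higher in all 3 positions, while Sqle, Cyp51 and Msmo1 are called lower in no-tumor fat. Not all of the further enzymes counted in the text are plotted.

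Beside the tumor on HFD, 4 of these 16 enzymes were called higher and 1 lower than on the contralateral side, with a median of 0. Of all genes 29.5% were called there, so this count was near background. Msmo1, the sterol methyl oxidase that acts after Cyp51, had 0.77 ± 0.21 (adjusted p = 0.0249, edgeR), and this call was lost without contralateral replicate 1, 2 or 3 or peritumoral replicate 4. Sc5d fell by 0.43 ± 0.11 (adjusted p = 0.0199, edgeR), and this call was lost without replicate 4 of either side. On Chow 0 of the 16 were called between the sides, with 0 at an unadjusted p under 0.05. In contralateral against no-tumor fat 0 were called higher or lower on HFD and 2 were lower on Chow, Hsd17b7 (-0.54 ± 0.13, adjusted p = 0.0296, edgeR) and Msmo1 (-0.36 ± 0.10, adjusted p = 0.0483, edgeR). Those Chow calls were lost in 6 and 7 of the 8 leave-one-out fits. The interaction of diet with tumor bearing was positive for 4 of the 16, led by Hsd17b7 (0.64 ± 0.16, adjusted p = 0.0114, edgeR). The next were Sc5d (0.60 ± 0.17, adjusted p = 0.0258, edgeR) and the isomerase Ebp (0.35 ± 0.115, adjusted p = 0.0393, edgeR), whose calls were lost in 6 and 11 of the 16 leave-one-out fits.

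Uptake was read from 14 genes of sterol uptake and transport, of which 3 were higher and 0 lower on HFD in peritumoral fat, 6 higher and 2 lower in contralateral fat, and 6 higher and 2 lower among the 13 tested in no-tumor fat. The medians were 0.35, 0.09 and 0.10, and of all genes 33.6%, 49.3% and 24.9% were called in either direction at these positions. Npc2, which moves cholesterol out of lysosomes, rose by 0.71 ± 0.13 in peritumoral fat (adjusted p = 0.00335, edgeR) and by 0.875 ± 0.10 in contralateral fat (adjusted p = 5.12e-05, edgeR). Cd36, a scavenger receptor for lipids, rose by 0.89 ± 0.11 in contralateral fat (adjusted p = 7.6e-05, edgeR) and 0.62 ± 0.08 in no-tumor fat (adjusted p = 0.000112, edgeR). Mylip, a ubiquitin ligase gene known as a target of the sterol sensor LXR, rose by 0.75 ± 0.07 in no-tumor fat (adjusted p = 1.09e-05, edgeR). The list holds genes that are not receptors, Mylip among them, so its counts of higher and lower genes give no direction of uptake. Vldlr, a receptor for triglyceride-rich particles, rose by 0.70 ± 0.085 in contralateral fat on HFD (adjusted p = 5.84e-05, edgeR). Lipa, the lysosomal lipase, rose by 0.74 ± 0.14 in peritumoral fat (adjusted p = 0.00425, edgeR), and Scarb1, the HDL receptor, by 0.43 ± 0.12 (adjusted p = 0.0207, edgeR). The Scarb1 call was lost without Chow peritumoral replicate 1 or 2 or HFD peritumoral replicate 3 or 4. Beside the tumor on HFD 5 of the 14 were higher and 1 lower than on the contralateral side, with Stard3, a lysosomal sterol transporter, at 0.57 ± 0.12 (adjusted p = 0.00979, edgeR) and Vldlr at -0.82 ± 0.17 (adjusted p = 0.00991, edgeR). In contralateral against no-tumor fat Npc2 was higher on HFD (0.375 ± 0.09, adjusted p = 0.0302, edgeR) and lower on Chow (-0.28 ± 0.08, adjusted p = 0.0465, edgeR), with the calls lost in 5 and 6 of 8 leave-one-out fits. The interaction of diet with tumor bearing was positive for 2 of the 14, among them Npc2 (0.68 ± 0.13, adjusted p = 0.00245, edgeR). Proliferating-cell markers summed to 170 CPM in Chow peritumoral replicate 4, against 36.8 to 89.9 CPM in the other 3 of its group. These markers summed to 147 to 427 CPM in HFD peritumoral and 41.3 to 82.2 CPM in HFD contralateral libraries, and macrophage markers (6 genes) to 1910 to 2750 CPM in the HFD peritumoral and 1070 to 1370 CPM in the HFD contralateral libraries. Adipocyte markers summed to 8430 to 15700 CPM in HFD peritumoral and 18000 to 21100 CPM in HFD contralateral libraries, and the part of these cells in the sterol genes was not tested.

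Control of the SREBP pathway was read from 12 further genes. Srebf1, whose product SREBP-1 mainly drives fatty acid synthesis, fell on HFD in all 3 positions, with 156, 114, 113 and 90.8 CPM in HFD peritumoral libraries, against 204, 179, 236 and 158 CPM in Chow peritumoral libraries. Its log2 fold changes were -0.76 ± 0.17 in peritumoral, -0.52 ± 0.09 in contralateral and -0.67 ± 0.13 in no-tumor fat (adjusted p = 0.00899, 0.000604 and 0.00497, edgeR), and the diets did not overlap at any position. Insig2, the second Insig gene, rose in contralateral fat on HFD, with 33.5, 30.5, 31.1 and 33.0 CPM against 22.4, 27.2, 23.8 and 22.2 CPM on Chow (0.39 ± 0.08, adjusted p = 0.00164, edgeR). It was lower in peritumoral than in contralateral fat on HFD (-0.47 ± 0.08, adjusted p = 0.0042, edgeR), and its interaction of diet with tumor bearing was 0.42 ± 0.11 (adjusted p = 0.0157, edgeR). Of the 12 genes 1 was higher and 1 lower on HFD in peritumoral fat, 5 higher and 1 lower in contralateral fat and 2 higher and 1 lower in no-tumor fat. Among all genes 33.6%, 49.3% and 24.9% were called in either direction, so the contralateral and no-tumor counts were near background. Ubxn8, of the Insig degradation machinery, rose by 0.59 ± 0.10 in contralateral fat (adjusted p = 0.000497, edgeR), and Erlin2, which binds Insig, by 0.36 ± 0.09 in peritumoral fat (adjusted p = 0.0107, edgeR). In no-tumor fat Ubxn8 rose by 0.305 ± 0.09 (adjusted p = 0.0236, edgeR), a call lost without Chow replicate 3 or HFD replicate 4. Ufd1, a partner in the same degradation, rose there by 0.32 ± 0.10 (adjusted p = 0.0281, edgeR), a call lost in 5 of 8 leave-one-out fits. On HFD 1 of the 12 was higher and 2 lower beside the tumor, near the 29.5% of all genes called there. Beside Insig2 these were Srebf1 (-0.49 ± 0.15, adjusted p = 0.0345, edgeR) and Erlin1 (0.32 ± 0.10, adjusted p = 0.0387, edgeR), each lost in 7 of 8 leave-one-out fits. On Chow edgeR called 0 between the sides, with 2 at an unadjusted p under 0.05. The interaction of diet with tumor bearing was positive for 3, among them Insig2 and Erlin1 (0.34 ± 0.11, adjusted p = 0.0349, edgeR), and the Erlin1 call was lost in 12 of 16 leave-one-out fits.

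Of the efflux and esterification genes tested on HFD against Chow, 4 of 11 were higher and 0 lower in peritumoral fat, 3 of 10 higher and 2 lower in contralateral fat and 3 of 10 higher and 1 lower in no-tumor fat, beside 33.6%, 49.3% and 24.9% of all genes called in either direction. Abcg1, which exports cholesterol to HDL, rose by 1.74 ± 0.20, 1.72 ± 0.19 and 1.39 ± 0.16 in peritumoral, contralateral and no-tumor fat (adjusted p = 0.000551, 0.00016 and 0.000314, edgeR). Abca1, the other main exporter, was not called in any comparison, with 572 ± 108, 661 ± 30.1 and 626 ± 8.72 CPM in the 3 HFD groups and 654 ± 52.3, 642 ± 18.3 and 583 ± 70.3 CPM in the Chow groups of the same order. Cyp27a1, the sterol 27-hydroxylase, rose by 0.57 ± 0.09 in contralateral and 0.54 ± 0.07 in no-tumor fat (adjusted p = 0.000392 and 0.000216, edgeR). Soat1, which esterifies cholesterol for storage, and Nceh1, a cholesteryl ester hydrolase, rose in peritumoral fat on HFD by 0.84 ± 0.19 and 1.28 ± 0.27 (adjusted p = 0.00824 and 0.00757, edgeR). Beside the tumor on HFD Soat1 was higher than on the contralateral side by 1.30 ± 0.14 (adjusted p = 0.000666, edgeR), the oxysterol hydroxylase Cyp7b1 by 2.25 ± 0.26 (adjusted p = 0.00081, edgeR) and Nceh1 by 1.34 ± 0.27 (adjusted p = 0.0086, edgeR), 4 of 11 being higher and 3 lower. Apoe, the apolipoprotein that carries exported sterol, rose on HFD by 0.49 ± 0.10 in contralateral fat (adjusted p = 0.00221, edgeR). Its interaction of diet with tumor bearing was 0.455 ± 0.14 (adjusted p = 0.0271, edgeR), lost in 5 of 16 leave-one-out fits. Apoe was higher in contralateral than in no-tumor fat on HFD (0.37 ± 0.09, adjusted p = 0.0349, edgeR), a call lost in 7 of 8 leave-one-out fits. Nceh1 rose by 0.33 ± 0.09 on HFD in no-tumor fat (adjusted p = 0.0193, edgeR), a call lost without HFD replicate 4.

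**Figure D4:**
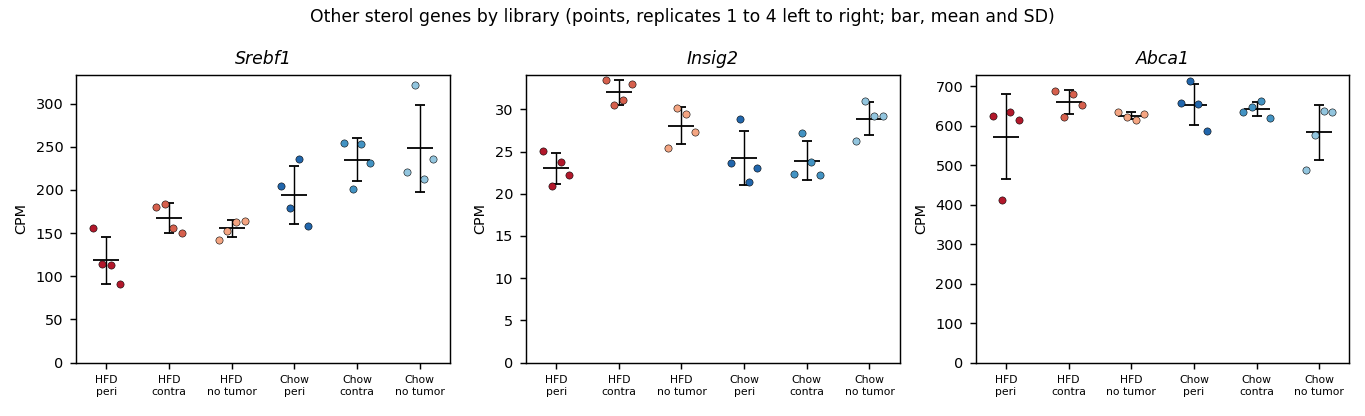
Level in CPM (vertical axes, starting at 0) of Srebf1, Insig2 and Abca1 in the 24 libraries by group, from HFD peritumoral at the left to Chow no-tumor at the right, with points for replicates 1 to 4, and bars for the mean and SD. For Srebf1 every HFD library lies below every Chow library of the same position, and HFD peritumoral replicate 2 is the lowest library for Abca1 (411 CPM).

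Genes of fatty acid synthesis, taken for comparison, moved the other way from Hmgcs1: of 9 genes 8 fell and 0 rose on HFD in peritumoral fat, 8 fell and 1 rose in contralateral fat, and 4 fell and 0 rose in no-tumor fat. Among all genes 33.6%, 49.3% and 24.9% were called in either direction at these positions. Acaca, the acetyl-CoA carboxylase, fell at all 3 positions, with log2 fold changes of -2.73 ± 0.19 in peritumoral, -2.33 ± 0.20 in contralateral and -2.66 ± 0.54 in no-tumor fat (adjusted p = 5.99e-05, 4.75e-05 and 0.0146, edgeR). Acly, which makes cytosolic acetyl-CoA, fell in peritumoral (-1.82 ± 0.12) and contralateral fat (-1.91 ± 0.10) (adjusted p = 5.99e-05 and 4.86e-07, edgeR). Fasn, the fatty acid synthase, fell by 3.25 ± 0.26 in peritumoral fat (adjusted p = 0.000134, edgeR), and the transcription factor gene Mlxipl fell in contralateral (-1.09 ± 0.095) and no-tumor fat (-0.86 ± 0.08) (adjusted p = 9.11e-06 and 1.01e-05, edgeR). Elovl6, a fatty acid elongase, fell by 3.37 ± 0.955 in no-tumor fat (adjusted p = 0.0468, edgeR), a call lost in 6 of 8 leave-one-out fits. Chow no-tumor replicate 2 weighed on both no-tumor values: without it Elovl6 had -2.01 (adjusted p = 0.0305, edgeR) and Acaca -1.95 (adjusted p = 0.000198, edgeR). Chow no-tumor libraries ran from 46.6 to 883 CPM in Elovl6 and from 298 to 1410 CPM in Acaca. They ran from 227 to 2670 CPM in Acly and from 2100 to 18400 CPM in Fasn, so the no-tumor median below comes from a widely spread group. Beside the tumor on HFD 2 of the 9 were lower than on the contralateral side, Mlxipl (-0.81 ± 0.19, adjusted p = 0.0132, edgeR) and the malic enzyme Me1 (-0.66 ± 0.20, adjusted p = 0.0364, edgeR), the second lost in 5 of 8 leave-one-out fits. The median log2 fold change of diet over these 9 was -1.82, -1.46 and -1.96, beside medians of 0.33, 0.19 and -0.03 over the 8 cholesterol genes in the same comparisons. Adipocyte markers summed to 8430 to 15700 CPM on HFD against 8770 to 10300 CPM on Chow in peritumoral fat, 18000 to 21100 against 9510 to 11200 CPM in contralateral fat, and 15100 to 17100 against 9830 to 12500 CPM in no-tumor fat. Mammary epithelium markers (8 genes, of which Wap was at 0 in 11 libraries) summed to 104 to 339, 254 to 302 and 365 to 434 CPM on HFD against 426 to 529, 453 to 518 and 480 to 754 CPM on Chow. Skeletal muscle markers summed to 30.8 to 239, 46 to 76.9 and 33.1 to 54 CPM on HFD against 33.1 to 2580, 75.7 to 4770 and 16.3 to 1010 CPM on Chow. Endothelial markers (4 genes) summed to 306 to 470, 371 to 668 and 585 to 598 CPM on HFD against 347 to 449, 393 to 456 and 311 to 356 CPM on Chow, without overlap in no-tumor fat. The part of these cell types in the diet differences was not tested beyond the fit without the libraries high in muscle markers. In that fit, among the pathway genes named above, Hsd17b7, Msmo1 and Npc2 lost their calls for bearing on Chow and Hsd17b7, Sc5d, Ebp, Npc2, Insig2 and Erlin1 theirs for diet by bearing. Apoe lost its call for diet by bearing and for diet in contralateral fat, Scarb1 for diet in peritumoral fat, and Ubxn8, Ufd1 and Elovl6 for diet in no-tumor fat, with adjusted p of 0.0596 to 0.739 (edgeR).

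Among themselves the 8 genes did not vary as a unit over the 24 libraries, which share their groups. Sqle and Cyp51 had the highest correlation of log2 levels (Pearson r = 0.87, n = 24), and 0.79 when deviations from the group means were used. Hmgcs1 and Insig1 had 0.82, but 0.21 on deviations from the group means, while Insig1 and Lss had 0.70 and 0.73. Hmgcs1 and Srebf2 had -0.42, and -0.17 on deviations. Set against the mean of the standardised log2 levels of the 8 genes, the most alike of 11235 other genes with a mean of at least 5 CPM over the 24 libraries were Mrps22 (r = 0.85), Dhcr7 (0.84), Vdac2 (0.83), Prelid3b (0.83), Ppp1ca (0.83) and Babam1 (0.83), of which Dhcr7, a sterol reductase late in the pathway, belongs to the lists of sterol genes.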

How the data were processed

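Counts of reads per gene were deposited by the authors as 1 matrix of 39017 genes by 24 libraries, of which 37607 had a symbol. TopHat, DESeq and the mm10 build are named per the submitters' processing notes, while the sources used here do not give tool versions or the strand of counting. The 9 comparisons were diet (HFD against Chow) at 3 positions, tumor side (peritumoral against contralateral) and tumor bearing (contralateral against no tumor) within either diet, plus diet by side and diet by bearing. A pair of groups was fitted alone (8 libraries) and an interaction on its 16 libraries, by the robust quasi-likelihood F test of edgeR 4.0.16 (R 4.3.3) with TMM factors. The filterByExpr cutoffs were a count of 10 and a total of 15. Benjamini-Hochberg adjustment ran over every gene tested, with calls at 0.05. An SE is the log2 fold change over the square root of F. Printed CPM used TMM over all 24 libraries, and RPKM the exon length in the matrix. The 8 genes, the gene lists and the alternatives were chosen with earlier results of these data known. Text names follow a rule: the 8 genes, up to 3 called genes per list and comparison with the lowest adjusted p, Srebf1, Insig2 and Abca1, and the 6 most alike. Counts over lists cover all their genes, some of which are not reported here by name. The edgeR step was run on simulated counts with a fixed spread. These held no outlying libraries, muscle differences or shared animals, so that run does not speak to them. Alternatives were DESeq2 1.42.0, limma 3.58.1 voom with quality weights, RLE size factors, a filter of 1 CPM in 4 libraries, no filter on low counts, all 24 libraries in 1 fit, ribosomal RNA rows left out, the replicate number as a block, leaving out each library and, added after seeing the data, leaving out the 5 Chow libraries with over 500 CPM of skeletal muscle markers. No 2 replicates of a group agreed within sampling noise: over the 36 pairs the median chi-square per gene was 0.93 to 7.41, against 0.455 from sampling alone.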

Additional observations from a re-analysis of the deposited data

Results flagged for a closer look

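Each of the 8 genes was looked at in each of the 6 groups for a library far from the other 3, which gave 48 sets of 4 libraries. In 4 of them the gap to the nearest library, as a share of the group's range, was above Dixon's critical value for 4 samples, and chance alone gives about 1 in 20. Hmgcs1 in HFD contralateral replicate 4 had a ratio of 0.86 at 314 CPM, against 196 to 213 CPM in the other 3. Sqle in Chow peritumoral replicate 4 had 0.894 at 21.5 CPM, against 14.3 to 15.1 CPM, and that library was also the highest of its group in proliferating-cell markers (170 CPM). Srebf2 in HFD peritumoral replicate 2 had 0.913 at 82.2 CPM, against 43.6 to 46.9 CPM, and that library was likewise the highest of its group in proliferating-cell markers (427 CPM). The part of those cells in either value was not tested. Srebf2 in Chow contralateral replicate 3 had 0.842 as the lowest of its group at 44.9 CPM, against 49.6 to 50.5 CPM.

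For Fdft1 and Srebf2 the effect of diet differed between contralateral and no-tumor fat in the interaction of diet with tumor bearing. Of all genes 19.9% were called in that test, so 2 of the 8 genes was near this share. Ctsb, which overlaps Fdft1, had 0.566 in the same test (adjusted p = 0.00589, edgeR). The Fdft1 call was lost in 8 of the 16 leave-one-out fits. The difference was 0.488 on the log2 scale for Fdft1 (adjusted p = 0.0305, edgeR) and 0.482 for Srebf2 (adjusted p = 0.00813, edgeR). Neither was called with all 24 libraries in 1 fit (adjusted p = 0.0906 for Fdft1 and 0.138 for Srebf2, edgeR) or without the 5 Chow libraries high in muscle markers (0.178 and 0.0755).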

How the results depend on the processing

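Of the values of the 8 genes under all alternatives, 1205 kept direction and side of the threshold, 35 lost a call, 28 gained one and 45 changed sign, all of the last for genes not called. Hmgcs1 stayed called higher on HFD in peritumoral and no-tumor fat and Insig1 in peritumoral fat under every alternative, and both in contralateral fat under all but the fit without the 5 Chow libraries high in muscle markers. That fit, chosen after seeing the data, leaves 1 Chow contralateral library, so its counts for diet in contralateral fat and diet by bearing say little about the 8 genes. It turned the sign of Cyp51 (0.117) and Idi1 (-0.191) for diet in contralateral fat, Lss (-0.025) for diet in no-tumor fat, Hmgcs1 (-0.463), Lss (0.122) and Srebf2 (0.069) for side on Chow, and Hmgcs1 (0.045) for diet by side. With all 24 libraries in 1 fit the number of the 8 called was 2 for diet in no-tumor fat, where Sqle (adjusted p = 0.105) and Cyp51 (0.0757) were lost, and 3 in contralateral fat, where Sqle (0.371) and Srebf2 (0.25) were lost. It was 4 for tumor side on HFD and 0 for diet by bearing. DESeq2 and voom each called 2 for side on HFD, 1 for bearing on Chow and 1 for bearing on HFD. Without a low-count filter 1 was called for bearing on Chow and 1 for bearing on HFD, and Sqle was lost in contralateral fat (0.0714). Leaving out 1 library gave 3 to 5 for diet in contralateral fat, 0 to 2 for side on HFD, 0 to 1 for bearing on Chow, 0 to 2 for bearing on HFD and 1 to 3 for diet by bearing. The cause was not tested.

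The labels do not say whether same-numbered libraries share an animal, so they were not paired: correlations of same-numbered deviations were 0, 0.2, 0.37 and 0.5 for side on HFD and not all over 0.1 in any comparison. For side on HFD 6 of the 8 libraries correlated best with their own number, and for the other pairs of groups 0 to 4 of 8 did. With the replicate block 5 of the 8 were called for side on HFD, Fdft1 with Hmgcs1 (-0.445), Insig1 (-0.449), Sqle (0.762) and Cyp51 (0.466). With the replicate block 1 was called for bearing on Chow, and 4, 6 and 2 for diet in no-tumor, contralateral and peritumoral fat.

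The sign changes were all of values not called in edgeR. With voom they were Fdft1 (-0.009) and Lss (-0.024) for diet in peritumoral fat, Cyp51 (-0.004), Hmgcs1 (-0.021) and Sqle (-0.021) for side on Chow, Lss (0.016) for bearing on Chow, Insig1 (-0.004) for bearing on HFD, and Idi1 (0.062) and Lss (-0.204) for diet by bearing. With all 24 libraries it was Hmgcs1 (-0.012) for side on Chow, and without a filter Idi1 (0.006) for diet by bearing. Leaving out 1 library gave ranges of -0.088 to 0.04 for Cyp51 and -0.054 to 0.205 for Insig1 for bearing on HFD. For diet in peritumoral fat the ranges were -0.036 to 0.408 for Cyp51, -0.002 to 0.241 for Lss and -0.063 to 0.314 for Srebf2. For side on Chow they were -0.07 to 0.226 for Cyp51, -0.123 to 0.229 for Hmgcs1 and -0.054 to 0.162 for Sqle. For Lss they were -0.455 to 0.15 for bearing on Chow, -0.279 to 0.332 for diet by bearing, -0.181 to 0.057 for diet by side and -0.103 to 0.502 for diet in no-tumor fat, and for Idi1 -0.166 to 0.118 for diet by bearing.

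Over all genes, 1 fit of all 24 libraries called 8799 against 5353 for diet in peritumoral fat, 692 against 1268 for bearing on Chow, 238 against 956 for bearing on HFD and 1556 against 3314 for diet by bearing. The replicate block gave 356 for bearing on Chow, 629 for bearing on HFD and 43 for diet by side. For side on HFD the count was 5144 with the block, 6332 with all 24 libraries, 5283 with DESeq2 and 5892 with voom, against 4610. Diet by side, with 0 in edgeR, had 594 with DESeq2, 1472 with voom, 333 with all 24 libraries, 7 without a filter and 1911 without HFD peritumoral replicate 1. Side on Chow, also with 0, had 13 with DESeq2 and 3 without a filter. Without the libraries high in muscle markers there were 2875 against 7847 for diet in contralateral fat, 14 against 1268 for bearing on Chow, 264 against 3314 for diet by bearing, 30 for side on Chow and 3 for diet by side. Leaving out any 1 library for bearing on Chow gave 375 to 750, or 1986 without Chow no-tumor replicate 2. Bearing on HFD had 365 to 560 without HFD no-tumor replicate 1, 2 or 3 or HFD contralateral replicate 3. Side on HFD had 2750 to 3034, against 4610, without HFD contralateral replicate 1, 2 or 3 or HFD peritumoral replicate 4, and diet in peritumoral fat had 3102 without Chow replicate 1.

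On deviations from group means the 6 most alike genes included Cdc34, Dock5, Mrps22, Ank and Fdps, of which Mrps22 also led on log2 levels. The depth limits Idi1 most, at 5 to 31 counts per library.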
